A study of Homo sapiens with 4 samples.

Results

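The 10 genes described here are the NRF2 regulator gene NFE2L2 and 9 of its best-known antioxidant targets, NQO1, HMOX1, TXN, TXNRD1, GCLC, GCLM, SRXN1, SLC7A11 and OSGIN1. They were taken by name from a table of 58884 genes, by a rule that uses no expression value. Earlier results of these data were known when they were chosen. All 10 had a mean of at least 1 TPM (a level corrected for the length of the gene and for the size of the library) and so belong to the 14912 genes that were tested. The RNA came from 2 established lines of human papillary thyroid cancer, TPC-1 and B-CPAP, each kept at 37 °C or at 40 °C, to ask what thermal stress does to the transcriptome of thyroid cancer cells. The 4 groups, TPC-1 at 37 °C, TPC-1 at 40 °C, B-CPAP at 37 °C and B-CPAP at 40 °C, held 1 library each, with no other agent named. The submitters give 3 exposure times: 15 min with the growth conditions, 20 min in their design text and 24 h with the treatment. Which one holds could not be settled here.

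NRF2, the protein product of NFE2L2, is a transcription factor that is held at a low level by KEAP1, an adaptor that hands it to a ubiquitin ligase for destruction. Electrophiles and oxidants modify KEAP1, and NRF2 then builds up, pairs with small MAF proteins and binds antioxidant response elements in the promoters and enhancers of genes for glutathione synthesis, thioredoxin recycling, quinone reduction and haem breakdown. Much of NRF2's control is at the level of protein stability, which a measurement of RNA does not read.

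The antioxidant response element is the sequence through which these genes are grouped, so its core, TGACNNNGC, was searched on both strands of RefSeq promoter windows of 300 bases (250 before the annotated start and 50 from it, GRCh38). Windows were found for 8 of the 10 genes, 10 windows in all, and 3 windows of 2 genes, TXNRD1 and GCLM, held the core. Of all 35116 windows, 13.3% held it. All matches found in the windows of the 10 genes are shown. Whether they bear on the levels of these genes was not tested. Capitals mark the core, and the flanking bases are in lower case.
TXNRD1, first window, plus strand, chr12:104215670-104215698: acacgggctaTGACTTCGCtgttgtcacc
TXNRD1, first window, minus strand, chr12:104215761-104215789: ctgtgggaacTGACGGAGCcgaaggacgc
TXNRD1, second window, minus strand, chr12:104286920-104286948: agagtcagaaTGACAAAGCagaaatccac
GCLM, plus strand, chr1:93909446-93909474: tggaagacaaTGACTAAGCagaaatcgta
The cores of GCLM and of the second TXNRD1 window are each followed by the same 7 bases, agaaatc. The related AP-1 motif TGANTCA, found in 7.71% of all windows, overlapped none of these cores and occurred 2 times in the window of OSGIN1. HMOX1 and SLC7A11 had no window. A match is a string of letters and not a measured binding site, and a window without a match says only that these letters are not in those 300 bases.

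The libraries held an estimated 20704722 to 24466576 reads. Of 10 thyroid follicular markers, 4 (PAX8, FOXE1, HHEX and NKX2-1) had a mean of at least 1 TPM, while SLC5A5, the iodide importer of differentiated thyrocytes, was listed at 0 in all 4 libraries. The summed thyroid markers stood at 286 to 305 TPM in TPC-1, against 117 to 132 TPM in B-CPAP. PAX8 made up most of that sum, at 267 to 284 TPM and 98.9 to 112 TPM, while NKX2-1 was listed at 0 in both TPC-1 libraries and at 7.90 to 8.60 TPM in B-CPAP. Summed fibroblast markers stood at 2.87 to 2.98 TPM in TPC-1, against 49.7 to 71.7 TPM in B-CPAP, with 5 of 7 at a mean of at least 1 TPM. Summed epithelial markers stood at 376 to 453 TPM in TPC-1, against 617 to 805 TPM in B-CPAP. KRT8 and KRT18 had a mean of at least 1 TPM, and EPCAM, KRT19 and CDH1 a mean below it. KRT8 stood at 139 to 168 TPM in TPC-1, against 431 to 570 TPM in B-CPAP. KRT18 went the other way at each temperature, with 235.9 to 283.1 TPM in TPC-1, against 183.5 to 234.5 TPM in B-CPAP. All 3 sums differ with the line, but not every marker goes the way of its sum. None of 5 leukocyte and none of 3 endothelial markers reached a mean of 1 TPM. The part of these markers in the differences between lines was not tested. Because the library kit keeps no strand, a read where 2 genes overlap cannot be assigned by its strand.

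Among the 10 genes the levels spanned 3 orders of magnitude, as the plot of TPM by library shows. NFE2L2 (ENSG00000116044, chr2:177227595-177392697 on GRCh38, the build of all coordinates here) stood at 40.2 TPM in TPC-1 at 37 °C, 42.7 in TPC-1 at 40 °C, 17.4 in B-CPAP at 37 °C and 29.3 in B-CPAP at 40 °C. Both TPC-1 libraries were above both B-CPAP libraries, and within B-CPAP the 40 °C library was the higher. Of its exon bases, 17.6% are shared with AC019080.1 on the same strand, which was listed at 0.150 to 0.968 TPM.

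The glutathione genes were expressed unevenly. GCLC (ENSG00000001084, chr6:53497341-53616970), the catalytic subunit of glutamate-cysteine ligase, stood at 6.20 and 7.37 TPM in TPC-1 at 37 and 40 °C and at 8.96 and 9.95 TPM in B-CPAP. GCLM (ENSG00000023909, chr1:93885205-93909456), the modifier subunit that raises the activity of the enzyme, stood at 29.1 and 33.9 TPM in TPC-1, against 38.0 and 54.1 TPM in B-CPAP. For both subunits the 2 B-CPAP libraries were above the 2 TPC-1 libraries, and the modifier exceeded the catalytic subunit 4.24- to 5.44-fold in TPM in every library. SLC7A11 (ENSG00000151012, chr4:138164097-138242349), the cystine-importing chain of system xc-, stood at 3.19 and 3.75 TPM in TPC-1, against 7.66 and 15.5 TPM in B-CPAP. B-CPAP at 40 °C was thus the highest library by far for this gene, with an estimated 1046 reads against 551 at 37 °C. SLC3A2, the heavy chain that carries SLC7A11 to the membrane, was far more abundant in TPM, and the TPM ratio of SLC7A11 to SLC3A2 was 0.0148 and 0.0189 in TPC-1, against 0.0499 and 0.135 in B-CPAP. TPM ratios between genes, here and below, depend on exon lengths that take in all annotated exons of a gene. Those lengths were 8646 bases for GCLC, 5420 for GCLM, 9645 for SLC7A11 and 5178 for SLC3A2.

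The thioredoxin genes differed in which factor separated their libraries. TXN (ENSG00000136810, chr9:110243811-110256640), the small protein that reduces disulfides, stood at 422 and 591 TPM in TPC-1, against 467 and 647 TPM in B-CPAP. Both 40 °C libraries were above both 37 °C libraries. TXNRD1 (ENSG00000198431, chr12:104215779-104350305), the reductase that recharges it with NADPH, stood at 172 and 193 TPM in TPC-1, against 215 and 288 TPM in B-CPAP. Here the lines separated, and TXN exceeded TXNRD1 2.17- to 3.06-fold in TPM. SRXN1 (ENSG00000271303, chr20:646615-653370), which repairs over-oxidised peroxiredoxins, stood at 4.96 and 7.31 TPM in TPC-1, against 9.29 and 5.88 TPM in B-CPAP, so that neither line nor temperature separated its libraries. Its level is uncertain. It rested on an estimated 81 to 187 reads a library, and 85.0% of its exon bases are shared with AL121758.1, a protein-coding gene annotated on the same strand.

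NQO1 (ENSG00000181019, chr16:69706996-69726951), which reduces quinones by 2 electrons and so keeps them from redox cycling, stood at 443 and 424 TPM in TPC-1, against 552 and 528 TPM in B-CPAP. Both B-CPAP libraries were above both TPC-1 libraries, and within a line the temperatures lay close together. HMOX1 (ENSG00000100292, chr22:35380361-35394214), haem oxygenase 1, which opens haem to biliverdin, iron and carbon monoxide, stood at 245 and 202 TPM in TPC-1, against 3617 and 2853 TPM in B-CPAP. No other gene of the 10 set the lines so far apart: by level HMOX1 ranked 548th and 672nd of the 14912 tested genes in TPC-1 and 29th and 34th in B-CPAP. OSGIN1 (ENSG00000140961, chr16:83948282-83966332), an oxidative stress induced growth inhibitor, stood at 30.9 and 24.0 TPM in TPC-1, against 26.0 and 18.1 TPM in B-CPAP, lower at 40 °C in each line. The 10 genes summed to 1396 and 1530 TPM in TPC-1 and to 4959 and 4450 TPM in B-CPAP. HMOX1 alone made up 17.5% and 13.2% of that sum in TPC-1, against 72.9% and 64.1% in B-CPAP, and without it the sums were 1151, 1328, 1342 and 1597 TPM.

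**Figure D1:**
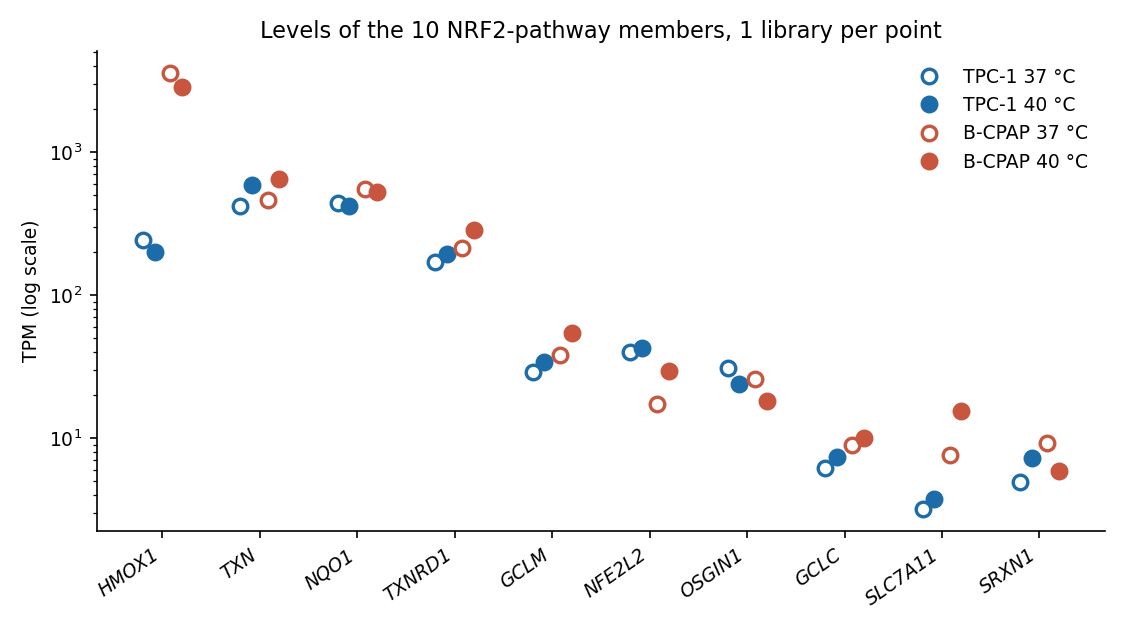
Level of each of the 10 genes in TPM on a log axis, 1 point per library, by line and temperature, with no error bars because each group is 1 library. HMOX1 lies at 202 to 245 TPM in TPC-1, against 2853 to 3617 TPM in B-CPAP, and SRXN1 and SLC7A11 are among the lowest.

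At 40 °C the 10 genes did not move as one group. In TPC-1, 7 were higher than at 37 °C, and in B-CPAP 6, beside 54.3% and 58.2% of all tested genes. NFE2L2, TXN, TXNRD1, GCLC, GCLM and SLC7A11 were higher in both lines, NQO1, HMOX1 and OSGIN1 lower in both, and SRXN1 alone had opposite signs, as did 26.5% of tested genes. The sign turned under other scalings for NFE2L2 in TPC-1 (-0.01 with libraries centred on their median) and for GCLC in B-CPAP (-0.05 so centred and -0.06 with quantile normalization). No gene of the 10 differed 2-fold on the log2(TPM + 1) scale in either line, where 3.48% of all tested genes did in TPC-1, against 3.9% in B-CPAP. Of the 11824 tested protein-coding genes, 18 did in TPC-1, against 137 in B-CPAP. The median log2 difference was 0.18 in TPC-1, against 0.28 in B-CPAP, beside 0.03 and 0.09 for all tested genes. Over both lines limma (line as a block, Benjamini-Hochberg adjustment) called 0 of the 10 genes at an adjusted p of 0.05, with 0% of all tested genes called. The smallest adjusted p among the 10 was 0.218. At an unadjusted p under 0.05 there were 5, where 19.5% of all tested genes passed. With 1 library a group there is no replicate check within a line. The intervals given next are exact (Clopper-Pearson) 95% intervals of the TPM ratio of 2 libraries, and they cover counting error only.

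Counting error alone was small against several of the differences. In TPC-1 the interval lay above 1 for 5 of the 10 genes (21.5% of all tested genes) and below 1 for 3 (16.1%). In B-CPAP it lay above 1 for 5 (36.4%) and below 1 for 4 (21.8%). TXN, TXNRD1 and GCLM lay above 1 in both lines, as did 16.2% of all tested genes, and NQO1, HMOX1 and OSGIN1 lay below 1 in both, as did 11.4%. The interval narrows with read number, so abundant genes such as NQO1 leave 1 with small differences.

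Differences between temperatures followed GC content across the whole transcriptome. Over 11819 tested protein-coding genes the Spearman correlation of exon GC content with the log2 difference was -0.59 in TPC-1, against -0.81 in B-CPAP, and over the 10 genes it was -0.58 and -0.84. These correlations are across genes measured in the same libraries, which are not independent replicates. The 10 genes ran from 35.4% GC (SLC7A11) to 59.1% (OSGIN1), with a median of 45.5% beside 48.2% for protein-coding genes. The genes higher at 40 °C in both lines all had 46.3% GC or less, as did NQO1, and HMOX1 and OSGIN1, the most GC-rich of the 10, were lower. Each gene was therefore set beside the tested protein-coding genes within 2 percentage points of its own GC content. What sets the trend was not tested.

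**Figure D2:**
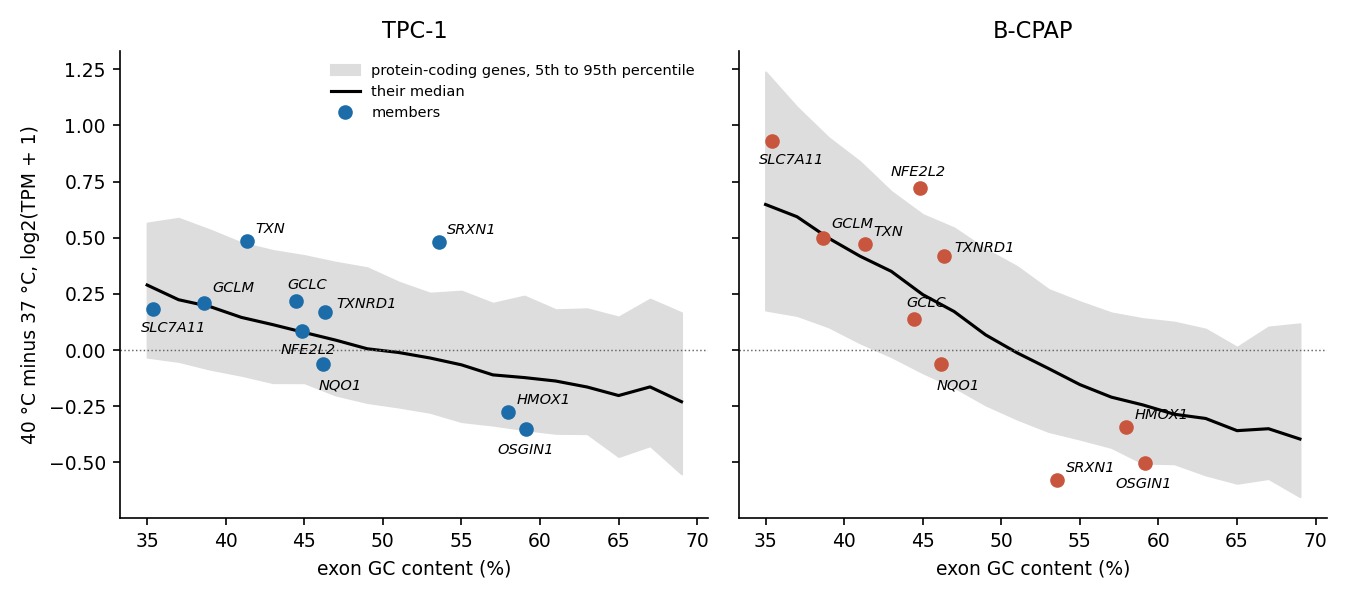
Log2 difference in TPM + 1 between 40 and 37 °C (y axis) against exon GC content in percent (x axis) for each line, with the median (line) and the 5th to 95th percentile (grey) of protein-coding genes, and the 10 genes as points. Most points fall along the trend, with a Spearman correlation of -0.58 in TPC-1, against -0.84 in B-CPAP. SRXN1 lies above the grey band in TPC-1 and below it in B-CPAP, and NFE2L2 lies above it in B-CPAP. TXN in TPC-1 and OSGIN1 in B-CPAP lie at its edge.

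Beside genes of like GC content the group's own difference came close to 0. Its median after subtraction of the like-GC median was 0.01 in TPC-1, where 6 of the 10 lay above, and -0.06 in B-CPAP, where 4 did. Above the like-GC median in both lines were NFE2L2, TXN and TXNRD1, and below it in both were NQO1, HMOX1 and OSGIN1. NFE2L2 lay above it in TPC-1 by only 0.0051, and it lay below with a straight line in GC content (-0.017) and with genes also alike in TPM (-0.00062). Those 3 and 3 of 10 stand beside 30.2% and 30% of all tested protein-coding genes. With the like-GC median subtracted, limma called 0 of the 10 genes (smallest adjusted p 0.481) and 0% of all tested genes. At an unadjusted p under 0.05 there were 4, where 9.91% of all tested genes passed.

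NFE2L2 was the only one of the 10 above the 95th percentile of like-GC genes in B-CPAP. Its TPM ratio of 40 to 37 °C was 1.06 in TPC-1 (interval 0.988 to 1.14), against 1.69 in B-CPAP (1.54 to 1.85). In B-CPAP its log2 difference of 0.72 exceeded that of 97.9% of like-GC genes, whose median was 0.26. In TPC-1 the difference of 0.09 sat at the like-GC median of 0.08. Over both lines limma gave 0.40 (SE 0.175, adjusted p = 0.283).

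Among the glutathione genes, GCLM followed its GC content closely. Its ratio was 1.16 in TPC-1 (1.06 to 1.27), against 1.42 in B-CPAP (1.33 to 1.52), and its log2 differences of 0.21 and 0.50 stood beside like-GC medians of 0.19 and 0.50. SLC7A11 had the largest ratio of the 10 genes, 2.02 in B-CPAP (1.82 to 2.25), beside 1.18 in TPC-1 (0.961 to 1.44). It is also the gene of lowest GC content, and its B-CPAP log2 difference of 0.93 stood above 83.5% of like-GC genes, whose median was 0.62. In TPC-1 its difference of 0.18 stood above 35.9% of like-GC genes, whose median was 0.25. GCLC differed less, with ratios of 1.19 (1.02 to 1.38) and 1.11 (0.989 to 1.25). It stood above 78.2% of like-GC genes in TPC-1, against 26.1% in B-CPAP. None of these 3 was called over both lines, with adjusted p from limma of 0.236 for GCLM, 0.267 for SLC7A11 and 0.500 for GCLC.

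TXN was the gene whose difference was nearest the same in both lines among those that were higher. Its ratio was 1.40 in TPC-1 (1.33 to 1.47), against 1.39 in B-CPAP (1.33 to 1.45). On the log2 scale the differences were 0.49 and 0.47. The like-GC medians were not equal, however, at 0.14 in TPC-1, against 0.40 in B-CPAP, so TXN exceeded 95.01% of like-GC genes in TPC-1, against 62.2% in B-CPAP. Over both lines limma gave 0.48 (SE 0.0602, unadjusted p = 0.000505, adjusted p = 0.218). That call turned with the genes entered: the adjusted p was 0.00286 among genes with a mean of at least 5 TPM and 0.00082 among protein-coding genes only. In the same fits limma called TXNRD1 (adjusted p = 0.0491 and 0.0322) and HMOX1 (0.0232 and 0.0104), and in the second OSGIN1 (0.0446). Of all genes entered, 8.57% and 11.4% were called in those fits. None of TXN, TXNRD1, HMOX1 and OSGIN1 was called in any fit run with the like-GC median subtracted. TXNRD1 had ratios of 1.12 (1.09 to 1.16) and 1.34 (1.30 to 1.37), above 75.8% and 83.7% of like-GC genes.

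SRXN1 went opposite ways. Its ratio was 1.47 in TPC-1 (1.10 to 1.98), against 0.633 in B-CPAP (0.496 to 0.805). Opposite signs with both intervals excluding 1 were found for 1.72% of tested genes. Its log2 differences, 0.48 and -0.58, exceeded 98.4% of like-GC genes in TPC-1, against 0.557% in B-CPAP. Whether the lines differ in this could not be tested with 1 library a group, and the shared exons named above bear on the value.

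The 3 genes lower at 40 °C differed in size. NQO1 had a ratio of 0.958 in TPC-1 (0.929 to 0.987), against 0.957 in B-CPAP (0.934 to 0.981), while genes of like GC content had median log2 differences of 0.06 and 0.20. HMOX1 had ratios of 0.824 (0.784 to 0.867) and 0.789 (0.780 to 0.798), and its log2 differences of -0.28 and -0.34 stood beside like-GC medians of -0.12 and -0.22. OSGIN1 had the lowest ratio shared by both lines, 0.777 (0.689 to 0.875) and 0.695 (0.614 to 0.785). It exceeded 5.88% of like-GC genes in TPC-1, against 4.39% in B-CPAP. Outside the 5th to 95th percentile of like-GC genes lay TXN and SRXN1 in TPC-1 and NFE2L2, SRXN1 and OSGIN1 in B-CPAP, 2 and 3 of 10, where 10.1% and 9.68% of tested protein-coding genes lay. TXN was at the edge, at 95.01%, and OSGIN1 was just outside the lower limit in B-CPAP and just inside it in TPC-1.

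**Figure D3:**
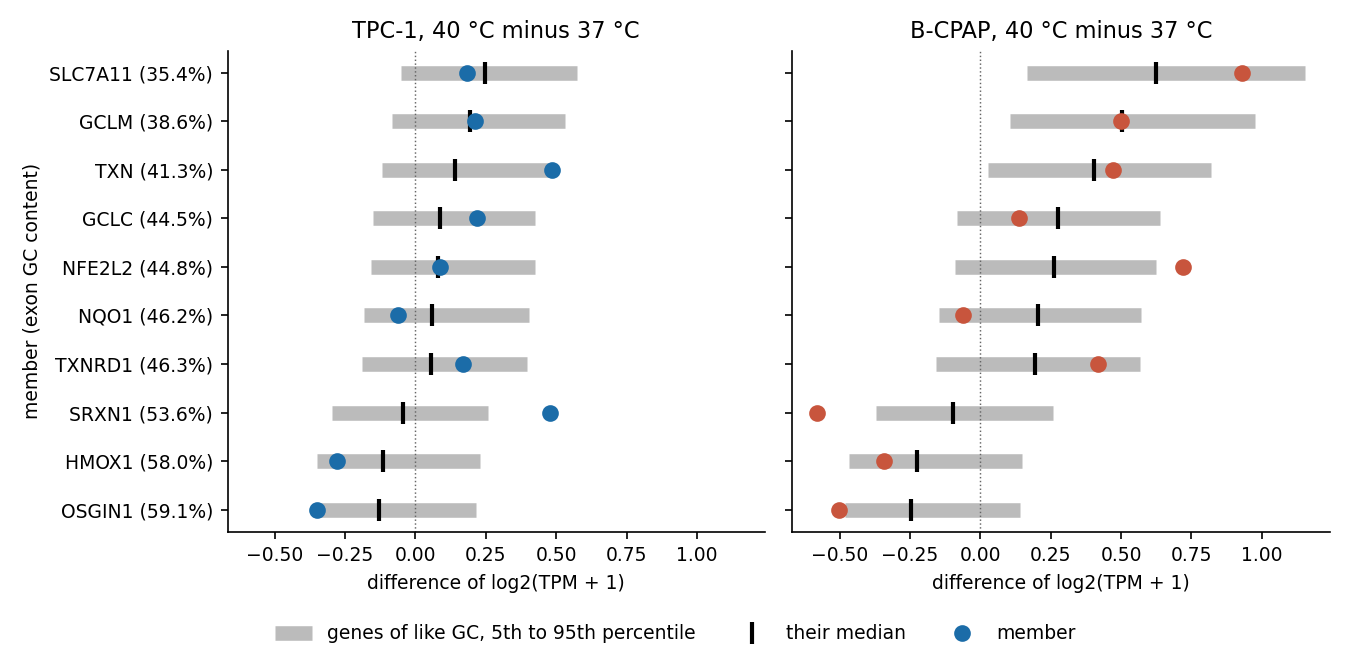
Log2 difference between 40 and 37 °C of each of the 10 genes (points, 1 panel and colour per line) beside the median (tick) and the 5th to 95th percentile (bar) of protein-coding genes of like GC content. GCLM sits near the like-GC median in both lines, while NFE2L2 in B-CPAP and SRXN1 in both lines lie outside the bar, and TXN in TPC-1 and OSGIN1 in B-CPAP lie at its edge.

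Of all tested genes, limma called far more between the lines than between the temperatures. Among the 10, TXN and OSGIN1 differed more by temperature (0.48 and -0.43) than by line (0.14 and -0.32). The rest differed more by line in these fits. For SRXN1 that rests on averages (-0.05 by temperature and 0.26 by line) of differences with opposite signs. They were 0.48 in TPC-1 and -0.58 in B-CPAP by temperature, and 0.79 at 37 °C and -0.27 at 40 °C by line. Over both temperatures limma called 7 of the 10 genes at an adjusted p of 0.05, 6 higher in B-CPAP (HMOX1, SLC7A11, GCLM, TXNRD1, GCLC and NQO1) and 1, NFE2L2, lower. Of all tested genes 62.7% were called, 29.9% higher and 32.8% lower, so a count of 7 of 10 is near the background. The median log2 difference of the 10 was 0.37, beside -0.05 for all tested genes. On the log2(TPM + 1) scale 3 of the 10 were 2-fold apart at 37 °C (HMOX1, SLC7A11 and NFE2L2), as were 35.8% of tested genes, and HMOX1 and SLC7A11 also at 40 °C, as were 34.3%. At both temperatures 27.9% of tested genes were. The spread in this fit is the disagreement between the 2 temperatures, with 1 residual degree of freedom, and it holds no spread between cultures of a line.

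HMOX1 had the largest difference. B-CPAP exceeded TPC-1 14.8-fold in TPM at 37 °C (interval 14.3 to 15.3) and 14.1-fold at 40 °C (13.6 to 14.7). The log2 difference was 3.85 (SE 0.0577, 95% interval 3.70 to 3.996, adjusted p = 1.93e-05 by limma). Of all tested genes, 2.39% differed at least as much between the lines, in either direction. HMOX1 over NQO1 in TPM was 0.553 and 0.476 in TPC-1, against 6.55 and 5.40 in B-CPAP.

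SLC7A11 was higher in B-CPAP by 1.42 on the log2 scale (SE 0.227, adjusted p = 0.00425 by limma). In TPM it was 2.40-fold higher at 37 °C (2.03 to 2.85) and 4.13-fold at 40 °C (3.56 to 4.82). The enzyme genes differed less. GCLM was higher by 0.52 (SE 0.117, adjusted p = 0.0142), TXNRD1 by 0.45 (SE 0.0893, adjusted p = 0.00903), GCLC by 0.43 (SE 0.144, adjusted p = 0.0495) and NQO1 by 0.32 (SE 0.0608, adjusted p = 0.00797), all by limma. These 4 calls were lost in other fits. Without the temperature block the adjusted p was 0.101 for GCLM, 0.0933 for TXNRD1, 0.0953 for GCLC and 0.057 for NQO1, and without the intensity trend it was 0.061 for TXNRD1, 0.0505 for GCLC and 0.0941 for NQO1. The GCLC call was also lost with pseudocounts of 0.1 (adjusted p = 0.0594 by limma) and 5 (0.0514). It was lost as well without a filter on TPM (0.107) and with the robust setting of limma (0.0517).

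NFE2L2 itself went the other way from most of the target genes named for it. Its log2 difference was -0.85 (SE 0.175, adjusted p = 0.0104 by limma), with a TPM ratio of B-CPAP to TPC-1 of 0.433 at 37 °C (0.396 to 0.473) and 0.686 at 40 °C (0.636 to 0.741). TXN (0.14, adjusted p = 0.101), OSGIN1 (-0.32, adjusted p = 0.0592) and SRXN1 (0.26, adjusted p = 0.460) did not pass the limma test. The TXN call turned under the other scalings, with adjusted p of 0.0432 (centred), 0.0165 (quantile) and 0.0221 (without mitochondrially encoded genes). A p that misses the threshold does not show equal levels: the 95% interval of the SRXN1 difference ran from -0.46 to 0.98. OSGIN1 did pass where fewer genes were entered, at an adjusted p of 0.0478 with a mean of at least 5 TPM and 0.0393 with protein-coding genes only.

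**Figure D4:**
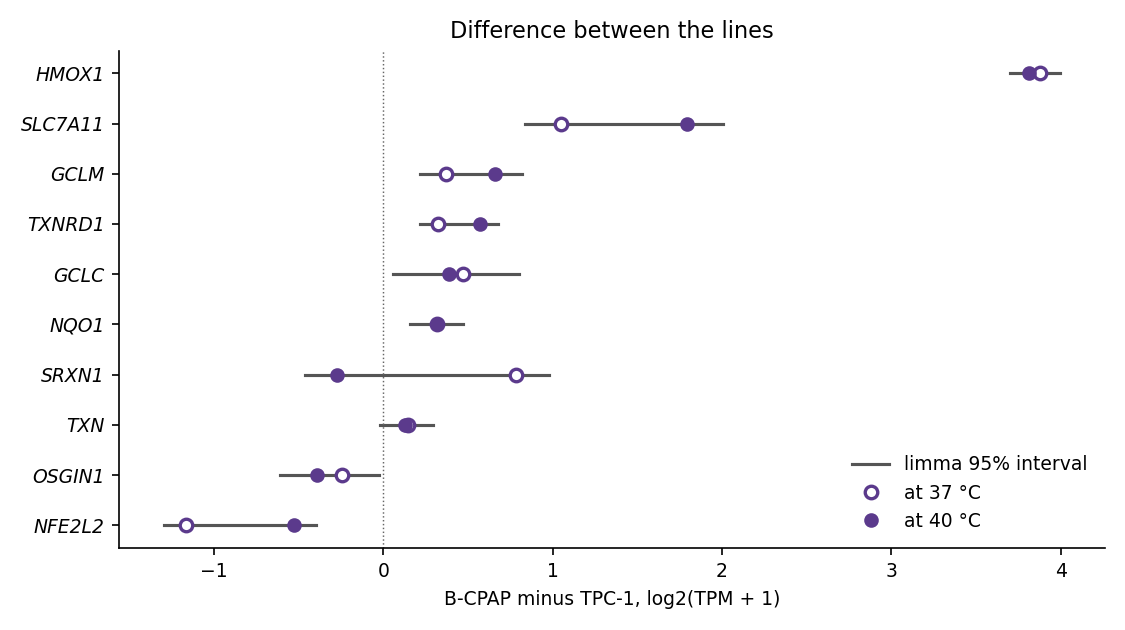
Log2 difference in TPM + 1 between B-CPAP and TPC-1 for each of the 10 genes, at 37 °C (open) and 40 °C (filled), with the 95% interval of the limma fit over both as a bar. HMOX1 lies at 3.88 and 3.82, SLC7A11 at 1.05 and 1.796, and NFE2L2 at -1.16 and -0.53, and the points of NQO1 coincide.

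The NFE2L2 profile over the 4 libraries was nearest to those of ZMYM2, NFAT5 and SEPTIN11 among tested protein-coding genes, by Euclidean distance of centred log2(TPM + 1) values (0.0254, 0.0462 and 0.0463). ZMYM2 stood at 7.31 and 7.98 TPM in TPC-1, against 2.75 and 5.26 TPM in B-CPAP. The measure rests on 4 values a gene.

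Of 77 other genes of the pathway, in 9 roles, 71 were tested. Against 37 °C, 29 were higher and 40 lower in TPC-1 (median log2 difference -0.03) and 29 higher and 42 lower in B-CPAP (median -0.09), beside medians of 0.03 and 0.09 for all tested genes. By limma 0 of the 71 were called, as were 0% of all tested genes. At an unadjusted p under 0.05 there were 21, where 19.5% of all tested genes passed. With the like-GC median subtracted there were 8, where 9.91% of all tested genes passed. Below the like-GC median in both lines lay 35 of 71 genes (49.3%), where 30% of tested protein-coding genes lay, and above it in both lay 11 (15.5%), where 30.2% lay.

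The genes of NADPH supply feed the thioredoxin and glutathione reductases. Of these 6 genes, 5 were lower at 40 °C in TPC-1 and 4 in B-CPAP, beside 6334 and 5987 of all 14912 tested genes. Below their like-GC medians lay 6 in TPC-1 and 5 in B-CPAP, beside 5891 and 5900 of 11824 tested protein-coding genes. TKT and TALDO1, of the non-oxidative branch of the pentose phosphate pathway, had ratios of 0.860 and 0.811, and of 0.862 and 0.852. The iron store genes FTH1 (0.906 and 0.773) and FTL (0.871 and 0.795) were lower as well. FTH1 stood above 14.9% and 1.49% of like-GC genes, and FTL above 24.0% and 17.5%. PRDX3, a mitochondrial peroxiredoxin, was higher (1.34 and 1.42), above 93.2% and 71.5% of like-GC genes. SOD1, the cytosolic superoxide dismutase, lay above its like-GC median by 0.17 in TPC-1, against 0.45 in B-CPAP. None of these passed the limma test over all tested genes. Among genes with a mean of at least 5 TPM and among protein-coding genes only, limma called PRDX3 (adjusted p = 0.0154 and 0.00717), TKT (0.0493 and 0.0348), FTL (0.0418 and 0.0129) and FTH1 (0.0469 and 0.023), with no correction for GC content. Of all genes entered, 8.57% of 10112 and 11.4% of 11824 were called in those fits.

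KEAP1, which holds NRF2 down, stood at 123 and 107 TPM in TPC-1, against 101 and 87.5 TPM in B-CPAP. BACH1, a repressor that competes with NRF2 at HMOX1, stood at 5.16 and 5.83 TPM in TPC-1, against 4.48 and 9.16 TPM in B-CPAP. Its B-CPAP library at 40 °C was thus the highest, with a ratio to 37 °C of 2.05 (1.75 to 2.38). The log2 difference of 0.89 in B-CPAP stood beside a like-GC median of 0.45, above 95.1% of like-GC genes. In TPC-1 it was 0.15, beside a like-GC median of 0.17. Between the lines KEAP1 was lower in B-CPAP by limma (-0.29, adjusted p = 0.0279). That call was lost with libraries centred on their median (adjusted p = 0.25), without the temperature block (0.162) and without the intensity trend (0.117). It was also lost without mitochondrially encoded genes (0.082) and without a filter on TPM (0.0503). SQSTM1, an autophagy receptor that binds KEAP1, was higher in B-CPAP (0.96, adjusted p = 0.000501), and BACH1 was not called (0.20, adjusted p = 0.473). By temperature SQSTM1 was lower at 40 °C (-0.31, adjusted p = 0.218 by limma). It was called where fewer genes were entered (0.0364 and 0.0223), and not with the like-GC median subtracted (0.527).

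Across the roles, 18 of the 71 other pathway genes were called higher in B-CPAP and 34 lower, beside 29.9% and 32.8% of all tested genes. NADPH supply had 0 higher and 5 lower of 6, among them TKT (-1.50, adjusted p = 0.000102 by limma). The thioredoxin and peroxiredoxin genes had 2 higher and 7 lower of 11. TXNIP, the inhibitor that binds thioredoxin, stood at 979 and 984 TPM in TPC-1, against 15.7 and 20.4 TPM in B-CPAP, the lowest difference of the pathway list on the log2(TPM + 1) scale (-5.70, adjusted p = 1.93e-05). TXN itself was not called. Glutathione peroxidases and transferases were split, 5 higher and 5 lower of 13. GPX3, a secreted peroxidase, stood at 5.12 and 5.15 TPM in TPC-1, against 122 and 101 TPM in B-CPAP, and GSTM1 and GSTM3 were listed at 0 in both TPC-1 libraries and at 24.2 to 42.9 TPM in B-CPAP.

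Quinone and carbonyl reductases, the class of NQO1, had 4 higher and 7 lower of 14. AIFM2, a reductase of ubiquinone that protects membranes from lipid peroxidation, stood at 51.5 and 47.9 TPM in TPC-1, against 0.339 and 0.111 TPM in B-CPAP. AKR1C3 was at 38.2 and 39.4 TPM in TPC-1, against 2.57 and 3.22 TPM in B-CPAP, while AKR1C1 and AKR1C2 were at 0.0512 to 0.189 TPM in TPC-1, against 4.34 to 6.99 TPM in B-CPAP. The AKR1C genes and the GSTM genes are families of similar sequence, AKR1C1 and AKR1C2 most closely, and how reads shared between copies were counted is uncertain. The haem and iron genes had 1 higher and 2 lower of 5. FTH1 was higher in B-CPAP (1.29, adjusted p = 0.000168 by limma), as HMOX1 was. BLVRB, a biliverdin reductase, was lower (-1.62, adjusted p = 0.00012), as was FECH (-0.91, adjusted p = 0.0018). FTL (-0.04, adjusted p = 0.488) and BLVRA (-0.006, adjusted p = 0.965) were not called.

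**Figure D5:**
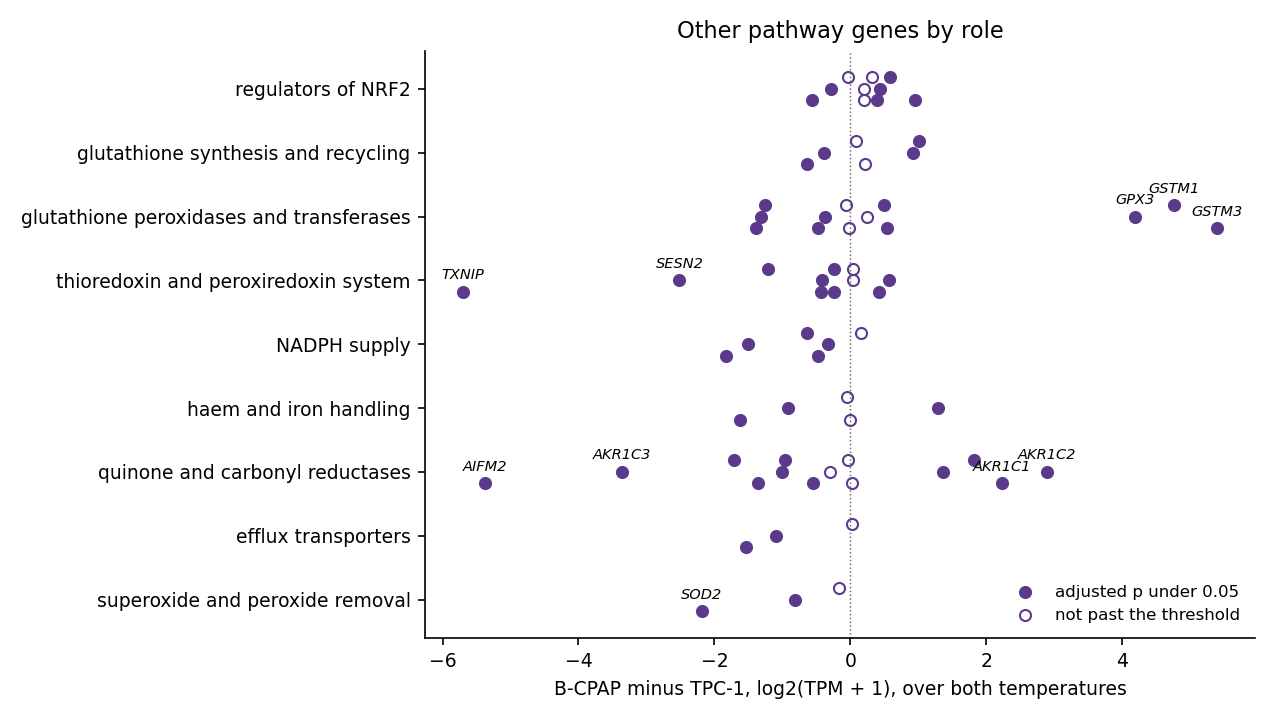
Log2 difference in TPM + 1 between B-CPAP and TPC-1 for the tested pathway genes, over both temperatures and grouped by role, filled where limma called the gene and open where it did not. NADPH supply holds 5 called genes, all lower in B-CPAP, and the differences run from -5.70 (TXNIP) to 5.40 (GSTM3, listed at 0 in TPC-1, where the value depends on the pseudocount).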

How the data were processed

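The authors deposited TPM for 58884 Ensembl gene IDs in 4 columns, 1 per library. Per the labels, RNA came from RNeasy Plus kits and the library kit was TruSeq v2. The submitters' processing notes name FastQC, MultiQC, Trimmomatic 0.38, featureCounts 2.0.0 and GRCh38. Their aligner is not given in the sources used here, nor is their annotation release. GENCODE 29, in which 58611 IDs were found, gave coordinates, exon lengths and GC content. TPM keeps no depth, but TPM times exon length came in steps of 1 read (90.5 to 92.0% of values up to 20 reads were whole within 0.02 of a read), and these estimated reads, 20704722 to 24466576 a library, gave the counting intervals. From 20 to 200 reads the whole share was lower, at 65.7 to 67.6%, and the 10 genes had 81 reads or more. No count test was run on them.

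Values were analysed as log2(TPM + 1), which understates fold changes of low genes, for genes with a mean of at least 1 TPM. Python 3.11.15 with scipy 1.17.1 gave the intervals, and limma 3.58.1 (R 4.3.3, intensity trend, two-sided, Benjamini-Hochberg adjustment over all tested genes) compared temperatures with the line as a block and lines with temperature as a block, with 1 residual degree of freedom. The labels name no separate cultures within a group, so the p-values hold no spread between cultures. Like-GC genes were tested protein-coding genes within 2 percentage points of exon GC content. The scripts were tested on simulated data. The 10 genes and the pathway and marker lists were chosen with earlier results of these data known. All 10 genes are named. Of the other pathway genes, the text may name all regulators and, per role, the 3 highest and 3 lowest by GC-adjusted temperature difference and by line difference, and the 3 genes nearest to NFE2L2. Some genes that this rule or the marker lists take are not reported here. Promoter windows are from RefSeq (GRCh38). The alternatives were other pseudocounts (0.1 and 5), filters, scalings, limma settings, fits without the block, and other definitions of like GC.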

Additional observations from a re-analysis of the deposited data

Results flagged for a closer look

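SRXN1 had opposite differences between 40 and 37 °C in the lines, 0.48 in TPC-1 and -0.58 in B-CPAP on the log2(TPM + 1) scale, so that B-CPAP minus TPC-1 came to -1.06. With 1 library a group the difference was not tested. The estimated reads were 81 and 114 in TPC-1 and 187 and 111 in B-CPAP at 37 and 40 °C.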

How the results depend on the processing

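Between temperatures, 0 of the 10 genes were called over both lines with the settings used, and 3 (HMOX1, TXN and TXNRD1) with a mean of at least 5 TPM, where 8.57% of 10112 genes were called. With protein-coding genes only, 4 were called (these and OSGIN1), where 11.4% of 11824 were. Fewer genes enter both fits. After subtraction of the like-GC median, 0 of the 10 were called in any setting run. Differences close to 0 after that subtraction changed sign: GCLC to 0.0431 without a filter, GCLM to -0.0398 with a pseudocount of 0.1 and to -0.0144 with a mean of at least 5 TPM, and SRXN1 to -0.0202 without a filter and to -0.0248 with a straight line in GC content. Within lines the same happened for NFE2L2 in TPC-1 (-0.017 with a straight line and -0.00062 with genes also alike in TPM) and GCLM in B-CPAP (0.048 with a window of 5 percentage points, 0.014 with a straight line and 0.013 with genes also alike in TPM). The cause was not tested. Between lines, 7 genes were called, 4 without the intensity trend (NFE2L2, HMOX1, GCLM and SLC7A11), 3 without the temperature block (NFE2L2, HMOX1 and SLC7A11) and 6 to 8 in the other settings. Centring libraries on their median shifted all temperature differences by -0.14 and all line differences by 0.13. Among genes alike in GC content and within 2-fold in TPM, HMOX1 had too few, 12, for a value. Fits leaving out 1 library were not run, since they leave no residual degree of freedom. The labels carry no replicate numbers to pair by, and the blocks are the line and the temperature.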

Other observations

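Of the 77 other pathway genes, 6 had a mean under 1 TPM and were not tested: GPX2, GSTA1, GSTM2, SLC40A1, ALDH3A1 and ABCC2.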
